A study of Arabidopsis thaliana with 20 samples.

Results

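The pseudo-response regulators of the plant circadian clock were examined in RNA-Seq data from Arabidopsis thaliana seedlings that received a short heat treatment in the morning or in the evening. The family has 5 members, which were taken by their locus identifiers from the 33601 loci counted: PRR9 (AT2G46790), PRR7 (AT5G02810), PRR5 (AT5G24470), PRR3 (AT5G60100) and TOC1 (AT5G61380). All 5 passed the filter on low counts. Wild-type Columbia-0 seedlings, about 2 weeks old, were raised at 23 °C with 12 h of light a day. The heat treatment was 1 h at 30 °C, while controls stayed at 23 °C. Evening (PM) treatments began at ZT 12.5 and morning (AM) treatments at ZT 0.5, where ZT counts the hours after lights on. The diel groups were PM heat, PM control, AM heat and AM control, with 4 libraries each. A further set of 4 libraries, 1 for each combination of heat and time, came from seedlings of the same age that had been moved to constant light (LL) for 2 days. PM and AM seedlings of the diel groups also differed in light, since the PM treatment fell in the dark, so time of day and light cannot be told apart there. Aerial tissue was harvested according to the protocol, although the labels name the organ as the whole plant.

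Pseudo-response regulators resemble the receivers of bacterial signalling systems but lack the residue that accepts the phosphate, and they carry a CCT domain through which they contact DNA. They act mainly as transcriptional repressors. Their transcripts peak in sequence over the day, PRR9 first and TOC1 last, and the proteins repress the morning factors CCA1 and LHY, which in turn repress evening genes including TOC1. TOC1 and PRR5 proteins are degraded through the F-box protein ZTL, and PRR3 protein shields TOC1 from it.

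The sequences before the gene starts are shown because several members changed together with time of day and heat, and because the binding sites of clock factors are short and can be read in them. They were taken from RefSeq's TAIR10.1 assembly, 250 bases before each annotated start, and are given for the 4 members with a match to a motif. Capitals mark matches to the evening element (AAAATATCT), the CCA1-binding site (AAAAATCT), the G-box (CACGTG), a site of the evening complex factor LUX (GATTCG) and the heat shock element core (GAANNTTC), read on either strand.
PRR9, chr2:19232357-19232606, plus strand: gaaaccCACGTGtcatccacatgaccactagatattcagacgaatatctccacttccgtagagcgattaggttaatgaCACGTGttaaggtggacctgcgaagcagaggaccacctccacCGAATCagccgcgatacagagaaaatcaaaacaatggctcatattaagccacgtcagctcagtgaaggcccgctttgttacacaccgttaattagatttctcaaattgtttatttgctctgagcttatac
PRR7, chr5:642031-642280, minus strand: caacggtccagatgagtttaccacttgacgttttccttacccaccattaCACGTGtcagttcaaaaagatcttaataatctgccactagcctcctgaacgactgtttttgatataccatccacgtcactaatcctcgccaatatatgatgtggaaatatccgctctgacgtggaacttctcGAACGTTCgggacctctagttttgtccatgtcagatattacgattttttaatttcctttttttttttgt
PRR5, chr5:8358547-8358796, minus strand: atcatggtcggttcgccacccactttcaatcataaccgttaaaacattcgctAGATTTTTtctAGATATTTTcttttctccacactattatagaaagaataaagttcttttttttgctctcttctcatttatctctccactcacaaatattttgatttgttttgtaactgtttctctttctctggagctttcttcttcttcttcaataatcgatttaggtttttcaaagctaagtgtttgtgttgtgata
TOC1, chr5:24674713-24674962, plus strand: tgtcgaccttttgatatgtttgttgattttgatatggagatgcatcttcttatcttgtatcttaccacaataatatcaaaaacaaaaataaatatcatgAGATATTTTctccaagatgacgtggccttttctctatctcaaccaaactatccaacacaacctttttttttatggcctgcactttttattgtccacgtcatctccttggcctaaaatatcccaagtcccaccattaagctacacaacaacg

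Over the window from 250 bases before to 50 after the start, the evening element occurred in 3 of the 5 members, against 2.82% of 27443 promoters of protein-coding genes on the nuclear chromosomes. In TOC1 it spanned bases -151 to -143 and in PRR5 bases -187 to -179, where base 0 is the first base of the gene. In PRR9 it lay after the start, at bases 26 to 34, within the following 29 bases of the gene on the plus strand.
PRR9, chr2:19232623-19232651: ttctctgagaAGATATTTTcgtggttgtg

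PRR5 also held a CCA1-binding site, present in 7.88% of all promoters, 3 bases from its evening element. G-boxes, present in 7.68%, occurred at 2 places in PRR9 and at 1 in PRR7. PRR9 alone held a LUX site (9.58% of all promoters for this spelling and 5.54% for the other one searched, GATACG), and PRR7 alone a heat shock element core (11.6%). PRR3 had no match. Matches describe these letters only, and binding was not measured.

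**Figure D1:**
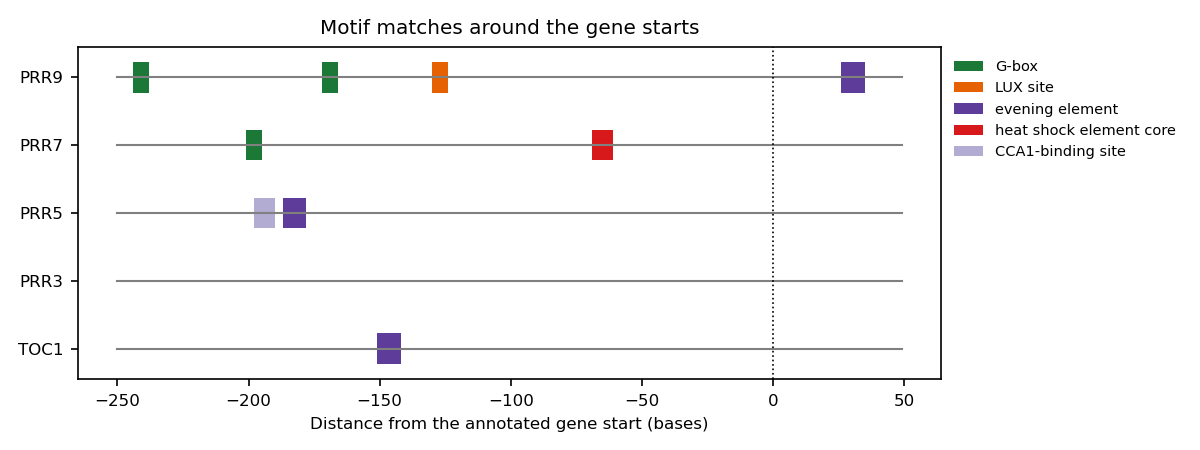
Motif matches along the searched window of each member, with the distance from the annotated gene start in bases on the horizontal axis and the 5 members down the page. Coloured boxes are the matches, and the evening element appears in PRR9, PRR5 and TOC1, after the start in PRR9 and before it in the other two.

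In TAIR10.1, PRR9 lies on chromosome 2 from 19232607 to 19235179 with 2140 exonic bases. The other 4 genes are on chromosome 5. PRR7 spans 637681 to 642030 with 3233 exonic bases, PRR5 8356204 to 8358546 with 1677, PRR3 24197971 to 24201415 with 2805, and TOC1 24674963 to 24678550 with 2808. No other annotated gene overlapped any of them. The deposited values are reads counted over the exons of each locus, so alternative transcripts, of which 7 are annotated for PRR3 and 5 for PRR9, were not told apart.

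The constant light libraries held 8594948 to 19957156 counted reads and the diel libraries 14637914 to 38812441. Levels are given as CPM, the read count relative to the library total after scaling by edgeR's TMM factors (0.757 to 1.25 in the diel libraries). Leaf genes, including the Rubisco small subunit gene RBCS1A, summed to 22356 to 36913 CPM in the diel PM libraries and to 43875 to 69575 CPM in the diel AM libraries. Between PM control and AM control 2 of these 4 genes, RCA and CAB1, were called lower, beside 14.9% of all genes, and their part in the time-of-day results was not tested. The 4 heat genes used as a check, among them HSFA2 and HSP101, were called higher after heat at both times, 4 of 4. In constant light the PM control library stood apart, with 379 CPM summed over these heat genes against 31.2 to 63.9 CPM in the 4 diel PM controls. In the diel AM controls the sum was 303 and 237 CPM in replicates 1 and 2 and 45.7 and 39.4 CPM in replicates 3 and 4, and these libraries enter each AM heat and interaction value. Root hair markers, which aerial tissue should lack, summed to 1.65 to 24.4 CPM in the diel libraries, and 2 of the 5, EXPA18 and COBL9, were at 0 in 1 library each. Their sum was 1.65 to 11.3 CPM in PM heat against 8.50 to 24.4 CPM in PM control, and 1.69 to 7.23 CPM in AM heat against 8.51 to 14.6 CPM in AM control. Of the 5, 3 were called lower after heat at each time, beside 10.6% of all genes in the PM and 8.36% in the AM. With the replicate block 4 were called lower in the AM, where 4347 of 21404 genes tested were called in either direction. Their part in the heat results was not tested. In tissue libraries fewer cells of a type and less RNA per cell cannot be told apart.

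Time of day was compared first, because it sets the level from which heat acts. PRR9 and PRR7 transcripts were lower in PM control than in AM control, and PRR5, PRR3 and TOC1 were higher. edgeR's quasi-likelihood test called all 5 (adjusted p under 0.05 and absolute log2 fold change over 0.5), 3 higher and 2 lower, where 13.8% of the 21404 genes tested were higher and 14.9% lower. The same 5 were called between PM heat and AM heat in the same directions, against 17.9% of genes higher and 19.0% lower. These counts of 5 held in every alternative fit and with any 1 library left out.

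PRR9, the earliest member, had 0.511, 0.265, 0.123 and 0.277 CPM in PM control, from 3 to 14 reads, against 62.3, 59.3, 37.1 and 46.1 CPM in AM control. The evening libraries held almost no PRR9 transcript. The difference was -7.38 on the log2 scale (SE 0.31, adjusted p = 5.98e-11), or 166-fold lower in PM control. After heat the difference was -7.70 (SE 0.31, adjusted p = 3.27e-11).

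PRR7, the next in sequence, had 3.87, 5.92, 1.80 and 3.27 CPM in PM control against 112, 102, 91.3 and 125 CPM in AM control. The log2 difference was -4.82 (SE 0.32, adjusted p = 9.81e-09), a 28.3-fold lower level in PM control. In heat-treated seedlings the PM level was lower by a smaller factor, 3.08-fold (log2 -1.62, SE 0.28, adjusted p = 1.76e-04). The test of heat against time of day given further on bears on that change.

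PRR5 showed the smallest time-of-day difference between controls. It had 8.58, 12.7, 3.85 and 4.38 CPM in PM control against 2.26, 2.14, 1.40 and 2.18 CPM in AM control. PM control replicates 1 and 2 were above replicates 3 and 4, and all were above the AM controls. The log2 difference was 1.90 (SE 0.33, adjusted p = 2.91e-04), and 3.07 (SE 0.35, adjusted p = 2.87e-06) between PM heat and AM heat.

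PRR3 had 5.44, 7.68, 7.95 and 6.71 CPM in PM control against 0.565, 0.629, 0.332 and 0.727 CPM in AM control. The morning values rest on 5 to 15 reads a library. The difference was 3.61 on the log2 scale (SE 0.23, adjusted p = 4.82e-09), 12.2-fold higher in PM control, and 5.47 (SE 0.25, adjusted p = 1.11e-10) in heat-treated seedlings.

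TOC1, the evening member that represses CCA1 and LHY, had 104, 111, 51.4 and 59.5 CPM in PM control against 11.6, 13.1, 10.0 and 12.0 CPM in AM control. All PM controls were above the AM controls, and replicates 1 and 2 of the PM control were again above replicates 3 and 4. The log2 difference was 2.82 (SE 0.24, adjusted p = 1.99e-07), and 4.76 (SE 0.27, adjusted p = 1.05e-09) between PM heat and AM heat.

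**Figure D2:**
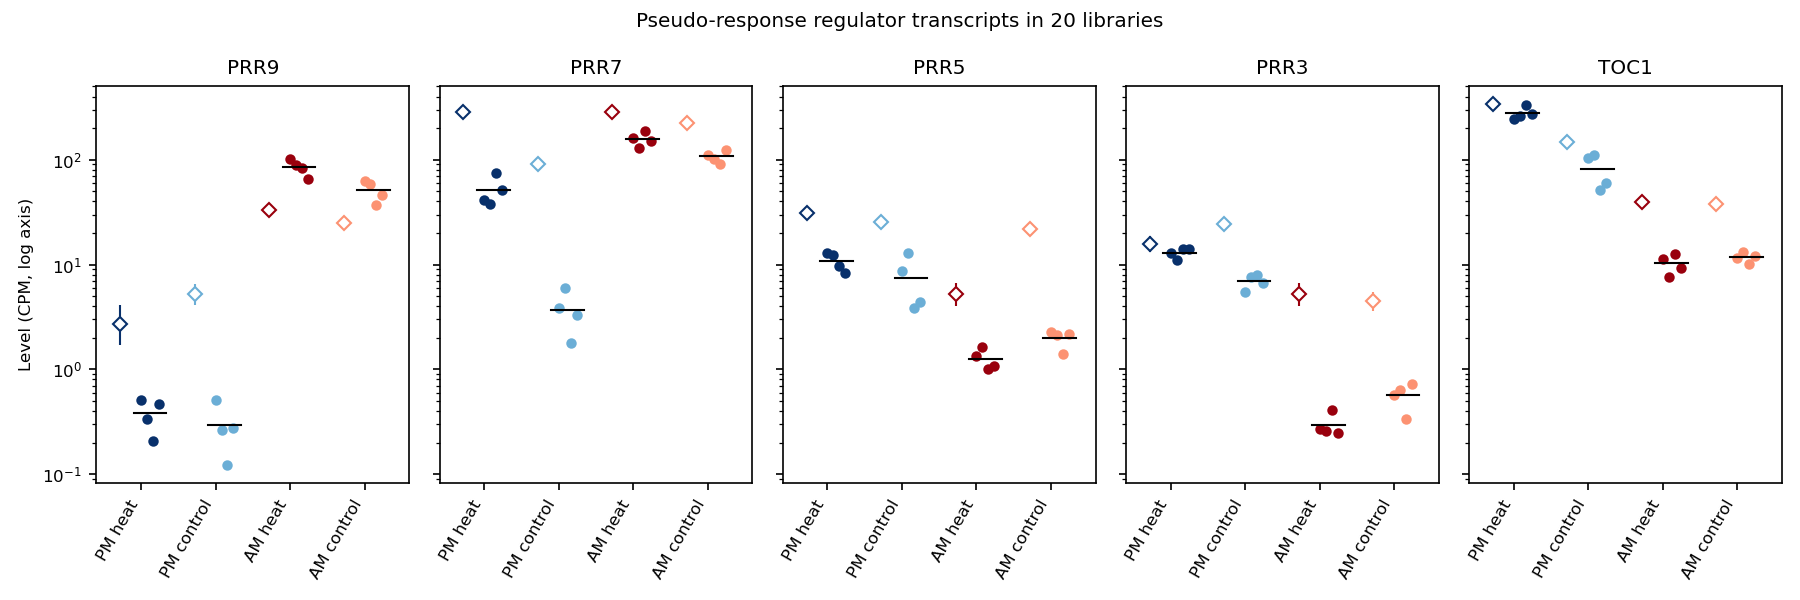
Level of each member in CPM on a log axis, with PM heat, PM control, AM heat and AM control from left to right in each panel. Filled circles are the 4 diel libraries with their mean as a bar, and the open diamond to their left is the single constant light library with its 95% counting interval. PRR9 in diel PM libraries stayed at or below 0.511 CPM, while PRR7 in PM heat (38.0 to 74.4 CPM) lay well above PM control (1.80 to 5.92 CPM).

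Heat in the evening raised PRR7, TOC1 and PRR3. Of the 5 members, 3 were called higher and 0 lower in PM heat against PM control, where 7.59% of all genes tested were higher and 10.6% lower. DESeq2 also called 3 higher and 0 lower, and 0 of the 5 were lower at an unadjusted p under 0.05. The median log2 fold change of the members was 0.94, and that of all genes -0.03. Upper-quartile scaling in place of TMM moved the median of all genes to -0.17 and the share of higher genes among those called to 23.3%, against 41.6%, and called the same number of members.

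PRR7 had 41.3, 38.0, 74.4 and 50.9 CPM in PM heat against 3.87, 5.92, 1.80 and 3.27 CPM in PM control. The lowest heated library was well above the highest control. The log2 fold change was 3.80 (SE 0.31, adjusted p = 1.33e-06), or 14.0-fold, the largest heat change among the members. Fitted within replicate numbers 1 and 2 it was 3.02 and within numbers 3 and 4 it was 4.68. PM control replicates 3 and 4 were the lowest of the controls, and PM heat replicates 3 and 4 the highest of the heated libraries.

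TOC1 had 246, 259, 331 and 273 CPM in PM heat against 104, 111, 51.4 and 59.5 CPM in PM control, with no overlap. It was 3.48-fold higher after heat (log2 1.80, SE 0.23, adjusted p = 1.32e-04). Within numbers 1 and 2 the log2 fold change was 1.24, and within numbers 3 and 4 it was 2.47.

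PRR3, whose protein binds TOC1, had 13.0, 11.0, 14.1 and 14.0 CPM in PM heat against 5.44, 7.68, 7.95 and 6.71 CPM in PM control, again with no overlap. It was 1.92-fold higher (log2 0.94, SE 0.19, adjusted p = 0.00339). With replicate numbers 1 and 2 alone the value was 0.89 and the adjusted p 0.0635.

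PRR5 had 12.8, 12.2, 9.69 and 8.33 CPM in PM heat against 8.58, 12.7, 3.85 and 4.38 CPM in PM control. The groups overlapped through PM control replicates 1 and 2. The log2 fold change of 0.56 (SE 0.31) missed the threshold (adjusted p = 0.200). With the replicate number as a block it was 0.67 (SE 0.21, adjusted p = 0.0229), which is a call, and without PM control replicate 2 it was 0.96 (adjusted p = 0.0185).

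PRR9 was close to 0 in the evening, with 0.511, 0.334, 0.206 and 0.471 CPM in PM heat, from 4 to 20 reads, against 0.511, 0.265, 0.123 and 0.277 CPM in PM control. The ranges overlapped and the log2 difference was 0.44 (SE 0.39, 95% interval -0.39 to 1.28, adjusted p = 0.443). At this depth changes within that interval were not excluded.

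In the morning 1 of the 5 members, PRR9, was called, where 13.6% of all genes tested were called, 5.20% higher and 8.36% lower. At an unadjusted p under 0.05 in edgeR, 2 of the 5 were higher and 1 lower, and the share of all genes at that threshold was not counted. PRR9 had 100.5, 88.5, 82.7 and 65.9 CPM in AM heat against 62.3, 59.3, 37.1 and 46.1 CPM in AM control. The 4 heated libraries were above the 4 controls, the closest being AM heat replicate 4 and AM control replicate 1. The change was 1.70-fold (log2 0.77, SE 0.21, adjusted p = 0.0230). This call was lost when AM heat replicate 1 (adjusted p = 0.0623), AM heat replicate 2 (0.0568), AM control replicate 3 (0.0696) or AM control replicate 4 (0.0665) was left out.

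PRR7 had 162, 129, 189.6 and 152 CPM in AM heat against 112, 102, 91.3 and 125 CPM in AM control. The groups did not overlap, but by a narrow margin, and the log2 fold change of 0.60 (SE 0.27) missed the threshold (adjusted p = 0.146). Its 95% interval ran between 0.03 and 1.17.

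PRR3 had 0.270, 0.257, 0.406 and 0.245 CPM in AM heat, 5 or 6 reads in each library, against 0.565, 0.629, 0.332 and 0.727 CPM in AM control. The groups overlapped through replicate 3 of each. The log2 fold change was -0.93 (SE 0.28) with an adjusted p of 0.0510, just short of the threshold. With the replicate number as a block it was -0.95 (SE 0.31, adjusted p = 0.0339), a call in the lower direction.

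PRR5 had 1.35, 1.63, 1.01 and 1.08 CPM in AM heat against 2.26, 2.14, 1.40 and 2.18 CPM in AM control, with overlap through AM control replicate 3. Its log2 fold change was -0.60 (SE 0.35, 95% interval -1.34 to 0.14, adjusted p = 0.271). TOC1 had 11.4, 7.67, 12.6 and 9.36 CPM in AM heat against 11.6, 13.1, 10.0 and 12.0 CPM in AM control, with an interval of -0.64 to 0.35 around a log2 fold change of -0.15 (SE 0.23, adjusted p = 0.729). For neither gene did the heated and control libraries of the morning stand apart.

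**Figure D3:**
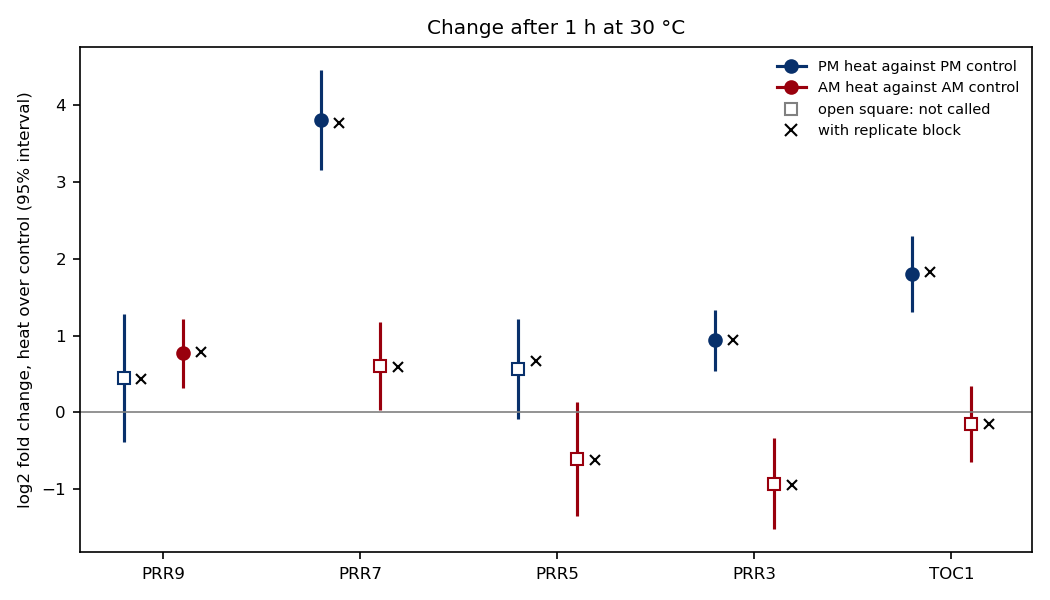
Change of each member after 1 h of heat as a log2 fold change over control, with 95% intervals from edgeR. PM heat against PM control is in blue on the left of each pair and AM heat against AM control in red on the right, open squares did not pass the test, and crosses give the value with the replicate number as a block. PRR7, PRR3 and TOC1 lie high in the PM, from 0.94 to 3.80, and only PRR9 passes in the AM, at 0.77.

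Whether heat acted differently at the 2 times of day, which the study calls gating, was tested as the interaction of heat and time. It was positive and passed for 3 of the 5 members, PRR7, TOC1 and PRR3, where 0.234% of all genes tested passed with a positive sign. That share depends on the fit. In either direction 85 of the 21404 genes passed here and 564 with DESeq2. With the replicate number as a block 688 passed, and 1100 with a batch term for replicates 1 and 2 against 3 and 4. Of the members, 3 passed with DESeq2, 3 with the block and 4 with the batch term. The log2 change with heat was larger in the PM than in the AM by 3.20 for PRR7 (SE 0.40, adjusted p = 0.00129). For TOC1 the difference was 1.95 (SE 0.33, adjusted p = 0.0153) and for PRR3 it was 1.86 (SE 0.34, adjusted p = 0.0196). The call of PRR3, whose morning counts were the lowest, was lost without AM heat replicate 2 (adjusted p = 0.0574), AM heat replicate 4 (0.0572) or AM control replicate 4 (0.0553). Within replicate numbers 1 and 2 only PRR7 passed (adjusted p = 0.0201), with 0.239 for PRR3 and 0.101 for TOC1. Within numbers 3 and 4 PRR7, TOC1 and PRR5 passed, and PRR3 did not (adjusted p = 0.0742). In either direction 19 of 21158 genes tested passed within numbers 1 and 2, and 2248 of 20953 within numbers 3 and 4.

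PRR5 had an interaction of 1.17 (SE 0.46, adjusted p = 0.302), with opposite signs of its changes at the 2 times. With the replicate number as a block the value was 1.29 (adjusted p = 0.0520), and with a batch term for replicates 1 and 2 against 3 and 4 it was 1.27 (adjusted p = 0.0361). PRR9 had -0.32 (SE 0.46, 95% interval -1.31 to 0.66, adjusted p = 0.854), so that its call in the AM and not in the PM does not show a difference between the times.

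The comparisons above share their control libraries, so they are not independent, and the 4 diel groups are given in order for each member. PRR9 and PRR7 ran AM heat, AM control, PM heat, PM control from high to low. The test did not separate PM heat from PM control for PRR9, nor AM heat from AM control for PRR7. PRR7 in heated evening seedlings, 51.1 ± 16.4 CPM (SD, n = 4), was 2.03-fold below the AM control, 108 ± 14.3 CPM (log2 -1.02, SE 0.27, adjusted p = 0.00519), against 24.1% of genes called lower in that comparison.

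PRR5, PRR3 and TOC1 ran PM heat, PM control, AM control, AM heat. The test with all libraries and no block did not separate the AM groups for any of the 3, nor PM heat from PM control for PRR5. The settings in which PRR3 in the AM and PRR5 in the PM were called are given with the alternatives. TOC1 averaged 277 ± 37.6 CPM in PM heat, 81.5 ± 30.4 in PM control, 10.3 ± 2.19 in AM heat and 11.7 ± 1.27 in AM control.

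Per kb of exon the members can be set against each other. TOC1 made up 78.6% of the family's summed CPM per kb in PM heat and 77.8% in PM control. The share of PRR7 in the evening was 12.4% in PM heat and 3.05% in PM control. In the morning PRR7 took 52.6% in AM heat and 53.3% in AM control, and PRR9 42.5% in AM heat and 37.9% in AM control. PRR3 had the lowest share in the morning, 0.112% in AM heat and 0.316% in AM control. The summed family level was 126 ± 17.9 CPM per kb in PM heat, 37.2 ± 13.6 in PM control, 92.9 ± 10.9 in AM heat and 62.7 ± 8.61 in AM control (SD, n = 4 each).

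**Figure D4:**
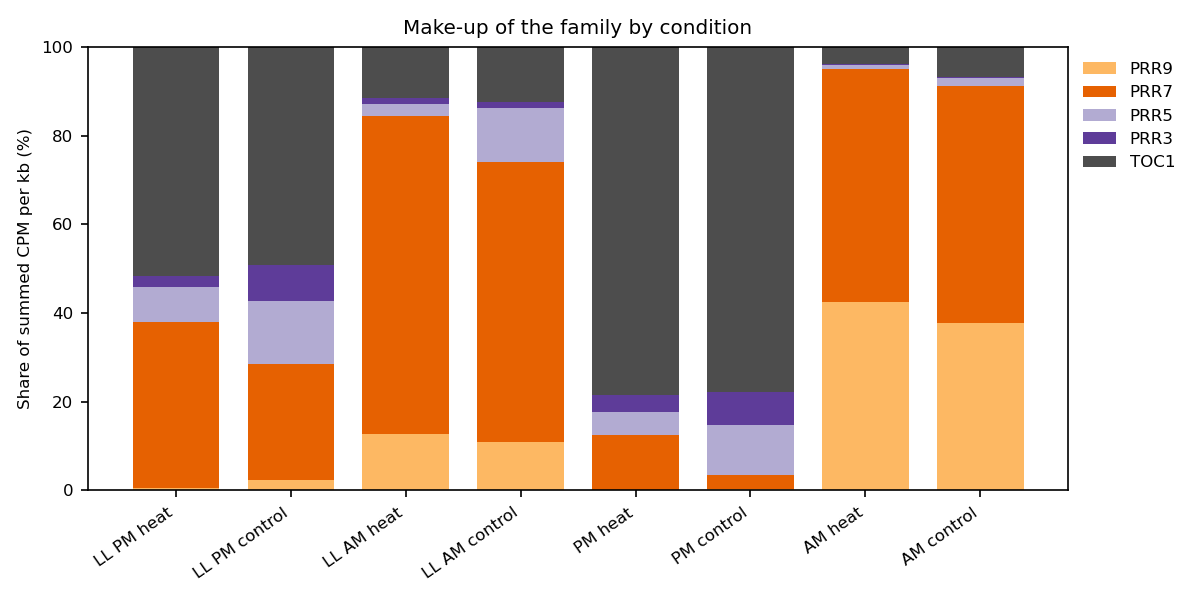
Share of each member in the family's summed CPM per kb of exon, as stacked bars in percent for the 4 constant light libraries and the means of the 4 diel groups. TOC1 holds 51.7% in LL PM heat and 49.1% in LL PM control, against 78.6% in diel PM heat and 77.8% in diel PM control.

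Constant light was used to ask which differences remain without a light and dark cycle. With 1 library per condition there is no test, and the intervals given cover counting error only. Of the 20 member levels, 18 lay above the range of the 4 diel libraries of the same condition, 2 below and 0 within it. Per condition, 5 of 5 members were above in LL PM heat (31.1% of all genes tested were) and 5 of 5 in LL PM control (22.7%). In LL AM heat 4 were above (30.2%) and 1 below (31.1%), and in LL AM control 4 were above (30.7%) and 1 below (31.5%). With CPM from unscaled totals, 2 of these values, PRR3 and TOC1 in LL PM heat, fell within the diel range.

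PRR9 was the member below the diel range, with 33.3 CPM in LL AM heat against 65.9 to 100.5 CPM in diel AM heat, and 25.1 CPM in LL AM control against 37.1 to 62.3 CPM in diel AM control. In the evening it was above, with 2.73 CPM in LL PM heat against at most 0.511 CPM in diel PM heat, and 5.24 CPM in LL PM control against at most 0.511 CPM in diel PM control. Its time-of-day difference was therefore smaller in constant light, at -2.26 between LL PM control and LL AM control on the log2 scale, against -7.38 in diel seedlings.

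PRR7 had 284 CPM in LL PM heat, 90.1 in LL PM control, 284 in LL AM heat and 222 in LL AM control. The largest departure from the diel level was in the PM control, where 90.1 CPM was 24.2 times the diel mean of 3.72 CPM. The LL PM heat and LL AM heat libraries were nearly equal, with a log2 difference of -0.0045 (counting interval -0.08 to 0.07), against -1.62 in diel seedlings. Heat in the evening went with a log2 difference of 1.65 (counting interval 1.56 to 1.75) in LL, against 3.80 in diel seedlings.

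TOC1 had 339.7 CPM in LL PM heat, 147 in LL PM control, 39.2 in LL AM heat and 37.6 in LL AM control. Evening heat went with a log2 difference of 1.21 (counting interval 1.13 to 1.29), against 1.80 in diel seedlings, and morning heat with 0.06 (-0.11 to 0.23), against -0.15. Like PRR7, TOC1 was higher in the heated library of the PM pair in LL and in diel seedlings.

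The heat difference of PRR3 and PRR9 in the PM had opposite signs in the light regimes. For PRR9 it was -0.94 in LL (counting interval -1.69 to -0.24), from 22 and 79 reads, against a diel 0.44 that missed the threshold. PRR3 had 15.7 CPM in LL PM heat and 24.3 in LL PM control, a log2 difference of -0.63 (counting interval -0.94 to -0.34), opposite in sign to the diel 0.94. PRR5 had 30.7 CPM in LL PM heat, 25.5 in LL PM control, 5.25 in LL AM heat and 21.9 in LL AM control. The LL AM heat library was 4.17-fold lower than the LL AM control (log2 -2.06, counting interval -2.46 to -1.68), against a diel log2 fold change of -0.60 that missed the threshold. The LL PM control and LL AM control levels of PRR5 were close, with a log2 difference of 0.22 (counting interval 0.02 to 0.42), against 1.90 in diel seedlings.

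Over the 5 members, the sign of the time-of-day difference was the same in LL and diel seedlings for 5 of 5 controls and 5 of 5 heated pairs, although that of PRR7 between the heated LL libraries was near 0. The sign of the heat difference was the same for 3 of 5 in the PM and 3 of 5 in the AM. The share of all genes with the same sign in both light regimes was not counted, for time of day or for heat. The LL PM control library, which carried the raised heat gene sum given above, enters each PM heat and control difference in LL, and its part in them was not tested.

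**Figure D5:**
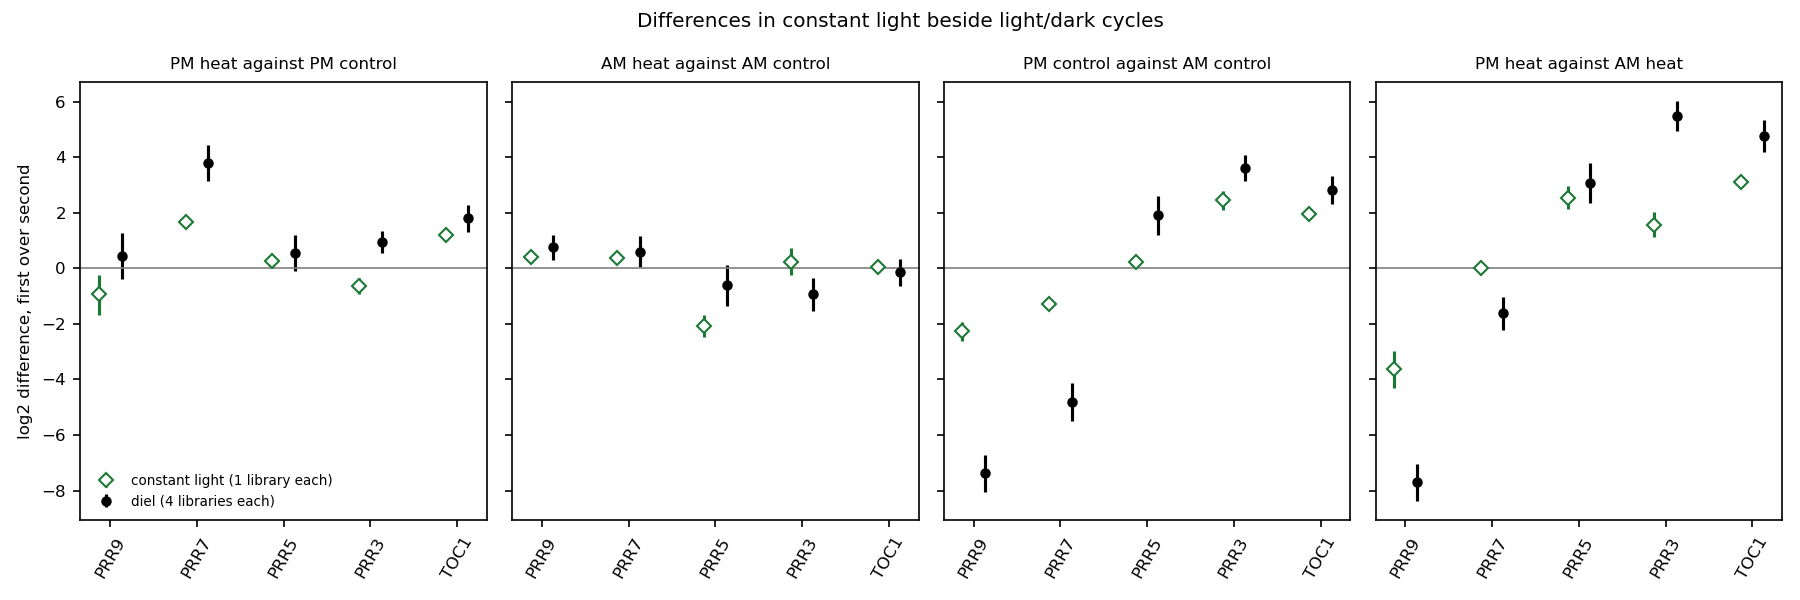
The log2 difference of each member in 4 comparisons, first group over second, in constant light (green diamonds, 1 library per condition, counting intervals only) beside light and dark cycles (black circles, 4 libraries per condition, 95% intervals from edgeR). Between PM control and AM control PRR9 and PRR7 lie below 0, at -2.26 and -1.30 in constant light against -7.38 and -4.82 in diel seedlings.

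The partners of the family in the clock were described from lists of known genes. Of the 8 factors of the CCA1 and REVEILLE family, which bind the evening element, 7 were lower in PM control than in AM control, beside 14.9% of all genes. RVE2 ran the other way, with 241 CPM in PM control against 15.0 CPM in AM control (log2 4.03, SE 0.23, adjusted p = 1.56e-09). In PM heat against PM control 3 of 8 were higher and 2 lower, beside 7.59% and 10.6% of all genes tested. RVE7 rose most, with a log2 fold change of 5.59 (SE 0.30, adjusted p = 4.48e-08), RVE1 rose by 2.12 (SE 0.26) and RVE8, an activator of evening genes, fell by 1.77 (SE 0.47). In AM heat 3 of 8 were higher, beside 5.20% of all genes, RVE7 by 1.87, RVE2 by 1.15 and CCA1 by 0.88 on the log2 scale, and 0 were lower. The median of the 8 was 0.31 in the PM and 0.28 in the AM, against -0.03 and 0.03 for all genes. The interaction passed for 2 of 8, RVE7 and RVE1, both positive, where 0.234% of all genes passed with that sign, and for 0 with a negative sign. With the replicate block RVE8 passed too, in the negative direction, and DESeq2 gave 2 positive and 2 negative. At an unadjusted p under 0.05 edgeR gave 2 positive and 4 negative, and the share of all genes at that threshold was not counted.

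The LNK proteins are co-activators that work with the REVEILLE factors at the PRR5 and TOC1 promoters. LNK1 rose by 3.48 (SE 0.27) and LNK4 by 2.44 (SE 0.25) on the log2 scale in PM heat, 2 of 4 in all, beside 7.59% of all genes tested. Both also passed the interaction test with a positive sign, beside 0.234% of all genes. In AM heat edgeR called 0 of 4, beside 5.20% of all genes higher and 8.36% lower. DESeq2 called 0, and 1 was higher at an unadjusted p under 0.05. With the replicate block 3 of 4 were called in the PM and 1 of 4, LNK1, in the AM. That block called 5671 of the 21404 genes in the PM and 4347 in the AM, in either direction. Their median was 1.53 in the PM and 0.23 in the AM.

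Of the evening complex, which represses PRR9 and PRR7 at night, LUX rose by 2.29 (SE 0.33, adjusted p = 3.13e-04) and its relative BOA by 1.10 (SE 0.21, adjusted p = 0.00267) in PM heat. ELF3 and ELF4 were not called, 2 of 4 being higher in all and 0 lower, beside 7.59% and 10.6% of all genes tested. The median was 0.78. In the AM edgeR and DESeq2 called 0 of 4, as did an unadjusted p under 0.05, and the median was 0.10. Of all genes tested, edgeR called 5.20% higher and 8.36% lower there. The interaction passed for 0 of 4 in edgeR and for 1 of 4 with DESeq2, at an unadjusted p under 0.05 and with the replicate block, where it was LUX. GI, which stabilises ZTL, rose by 3.25 (SE 0.43, adjusted p = 1.63e-04) in PM heat. It was 1 of 4 called among GI and the ZTL family (median 0.60), beside 7.59% of all genes higher. With the replicate block ZTL and LKP2 were called too, where 5671 of the 21404 genes were called in either direction. In AM heat 0 of the 4 were called by edgeR, by DESeq2 or at an unadjusted p under 0.05, where edgeR called 13.6% of all genes.

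Genes whose promoters the PRR proteins bind and repress were followed as outputs, 9 in the list and 8 tested. In PM heat 6 of 8 were higher and 0 lower, beside 7.59% and 10.6% of all genes tested, with a median log2 fold change of 2.37 against -0.03 for all genes. CDF1, a repressor of flowering, rose by 3.51 (SE 0.37), PIF5 by 3.24 (SE 0.18) and PIF4, a transcription factor that promotes growth in warmth, by 2.86 (SE 0.19). In AM heat edgeR called 0 of 8 higher and 1 lower, beside 5.20% and 8.36% of all genes tested. DESeq2 and an unadjusted p under 0.05 gave the same counts. The lower gene was CBF3 of the cold response (log2 -3.53, adjusted p = 0.00690), and the median of the 8 was 0.34. CBF3 was low throughout, at 0.0696 ± 0.0678 CPM in AM heat and 0.863 ± 0.499 CPM in AM control (SD, n = 4 each). The interaction was positive and passed for 5 of 8, beside 0.234% of all genes. With the replicate block it passed for 6 of 8, where 688 of the 21404 genes passed in either direction. In PM control 7 of these 8 were lower than in AM control and 0 higher, beside 14.9% and 13.8% of all genes.

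The transcripts whose pattern was most like that of each member were found from Pearson's r of log2(CPM + 1) over the 16 diel libraries, among 14826 genes averaging 5 CPM or more. The libraries share the 4 groups, so each r includes the differences between groups, and no p is given. CCA1 was closest to PRR9 (r = 0.997), followed by AT2G15020 and ASG4 (both 0.997). PRR7 was closest to AT2G46735 (0.982), COL5 (0.980) and AT5G19190 (0.979). The 3 closest to PRR5 were AT3G01310 (0.986), AT1G69890 (0.982) and THIC (0.981), the last an enzyme of thiamine synthesis. PRR3 was closest to AT4G01130 (0.990), RIBA2 (0.987) and BOA (0.986), and TOC1 to AT1G75730 (0.990), AT3G20340 (0.987) and BEH2 (0.986).

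Among the members themselves TOC1 and PRR3 were the most alike, with r of 0.975, and PRR9 and PRR3 the most opposed, with r of -0.971. PRR7 stood between the groups. Its r was 0.782 with PRR9 and -0.499 with TOC1, and its level in PM heat was above that in PM control while PRR9 was below 1 CPM in both.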

How the data were processed

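RNA-Seq libraries of aerial seedling tissue, 16 from diel conditions and 4 from constant light, were grouped by their labels. The deposited values are unnormalized read counts per locus. The authors aligned with TopHat2 2.1.0 and counted with HTSeq 0.6.0 on TAIR10, according to the submitters' processing notes, from poly(A) RNA and on the reverse strand. Loci reaching 10 counts in any diel library were tested, 21404 of 33601, with edgeR 4.0.16 in R 4.3.3: TMM, 1 fit of the 4 diel groups, glmQLFTest, and Benjamini-Hochberg adjustment over all genes tested. All adjusted p come from this test. Calls required an adjusted p under 0.05 and an absolute log2 fold change over 0.5, and the interaction no fold limit. Counts at an unadjusted p under 0.05 had no fold limit, and the share of all genes at that threshold was not counted. Standard errors were worked out from the fold change and the F statistic. Depth was 8594948 to 38812441 counted reads, and the common biological coefficient of variation was 0.261. No source says that replicates came from separate cultures, so the p-values measure the spread between these libraries. The 24 pairs of replicates within groups differed by more than sampling noise, with a dispersion index of 11.2 to 139.9.

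Replicate numbers are shared between groups in the labels, which do not say that they pair the libraries. Deviations from the group means correlated between libraries of the same number in 24 of 24 pairs (r from 0.119 to 0.792, mean 0.513). Numbers 1 and 2 went together nearly as closely, and so did 3 and 4 (mean r of 0.496 between different numbers of a pair and -0.504 across pairs). Of the 16 diel libraries, 10 were closest to their own number. Pairing by single number was thus not separated from a batch of numbers 1 and 2 against 3 and 4. A block by replicate number, which also takes up that split, was fitted. The blocked value is given where it changed the call of a member, or a count of a clock gene list or of the root hair markers in a heat comparison. The alternatives were DESeq2 1.42.0, other scalings and filters, the block, the pair of numbers as a batch, each pair alone, each time of day alone and each library left out. The unblocked fit was also run on simulated counts. These were drawn independently, without the deviations shared between replicate numbers, so they do not check the fit in that respect.

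The members and gene lists were chosen with earlier results of these data known. Named were the 5 members, of each list at most the 3 called genes that changed most in a comparison, and for each member the 3 genes with the highest r. RVE2 between PM control and AM control, ZTL and LKP2, ELF3 and ELF4, and the markers named fall outside this rule. They were named after their values were seen. Gene models and promoters come from RefSeq's TAIR10.1, not from the TAIR10 files used for counting, and all 5 members were matched by locus identifier. The study gives the move to constant light at different ages in different places, and the methods' version is used here.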

Additional observations from a re-analysis of the deposited data

Results flagged for a closer look

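The change with heat differed between the PM and the AM by a test of the difference itself for 3 members: by 3.20 on the log2 scale for PRR7, by 1.95 for TOC1 and by 1.86 for PRR3, all larger in the PM. Among the 20 sets of 4 diel libraries, 1 member in 1 group each, 2 held a library far from the other 3 by Dixon's criterion for 4 values, which chance alone meets in about 1 set of 20. PRR5 in AM control replicate 3 was low, at 1.40 CPM against 2.14 to 2.26 CPM in the other replicates. PRR3 in AM heat replicate 3 was high, at 0.406 CPM against 0.245 to 0.270 CPM, from 6 reads against 5 or 6. Without AM control replicate 3 the PRR3 change in AM heat was -1.08 (adjusted p = 0.0357), and without AM heat replicate 3 it was -1.09 (adjusted p = 0.0465), both calls, against -0.93 with all libraries.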

How the results depend on the processing

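Between PM and AM, in control and in heated seedlings, all 5 members were called in each of 9 other settings and with each of the 16 libraries left out. In PM heat 2 to 4 members were called in 10 other settings and 3 to 4 with a library left out, against 3. With replicates 1 and 2 only it was 2 members, where 710 of 21158 genes were called. With replicates 3 and 4 only it was 4 members, where 8173 of 20953 genes were called. In AM heat the count of 1 became 2 with upper-quartile scaling, with filterByExpr, with the replicate block, with the pair of numbers as a batch, with replicates 3 and 4 only and with AM libraries fitted alone, and 0 to 2 with a library left out. PRR3 was the member added in the first 4 of these (adjusted p from 0.0284 to 0.0492) and in 5 of 16 fits with a library left out, and PRR7 in the other two. PRR9 in AM heat was 0.68 within replicates 1 and 2 and 0.89 within 3 and 4, a call in both. Genes called in AM heat were 1344 of 21158 within replicates 1 and 2 and 4224 of 20953 within 3 and 4. PRR5 in PM heat was called with the block, with the batch (adjusted p = 0.0198), with replicates 3 and 4 only (0.00255) and without PM control replicate 2 (0.0185). The interaction count of 3 was 1 with replicates 1 and 2 only, where 19 of 21158 genes passed, and 2 to 3 with a library left out. TOC1 in AM heat changed sign, to 0.041, with replicates 3 and 4 only, and the PRR9 interaction, -0.57 to 0.11 with a library left out, without PM control replicate 1. Their causes were not tested. For libraries of the same replicate number r was over 0.1 in 24 of 24 pairs, as it was for different numbers within 1 and 2 or 3 and 4. The replicate block made calls of PRR3 in AM heat (-0.95) and PRR5 in PM heat (0.67) and changed no other member's call. It raised the genes called in all to 4347 in AM heat, against 2904, and to 688 for the interaction, against 85. Upper-quartile scaling moved the median of all genes in AM heat to -0.08, against 0.03, and the share of higher genes among those called to 26.3%, against 38.4%. With CPM from unscaled totals 2 constant light levels lay within the diel range, against 0. Ranked by Spearman's rho, 1 of the 15 most similar genes was shared. Low counts limit PRR9 in the PM (3 to 20 reads a library) and PRR3 in the AM (5 to 15), and constant light has no replicates.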
